A study of Mus musculus with 8 samples.

Results

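Mitochondrial transcription and RNA maintenance factors are nuclear genes whose protein products enter mitochondria and make, cut, tail or protect the RNAs encoded by mitochondrial DNA. The 10 genes described here, Polrmt, Tfam, Tfb1m, Tfb2m, Twnk, Lrpprc, Slirp, Mtpap, Trmt10c and Fastkd2, were chosen by symbol for this function and are 10 of the 54838 genes in the count table. The choice was made with earlier results of these data known. RNA was measured in mouse acute myeloid leukaemia (AML) cells that carry the fusion gene RUNX1-RUNX1T1 on a C57BL/6 background. All mice, Vehicle included, were Ptprca recipients of transplanted AML cells, described in the labels as irradiated below the lethal dose. The methods of the study name irradiation for its other leukaemia models and not for this one. The Vehicle group (4 samples) received no drug, and the AG636 group (4 samples) received AG636, an oral inhibitor of the pyrimidine synthesis enzyme DHODH, by gavage at 100 mg/kg b.i.d. Treatment lasted a single day per the legend of the study, and the ages of the mice were not given in the sources used here. The transplanted cells came frozen from a leukaemic donor mouse, and cells with high cKit and low CD11b were sorted from bone marrow and spleen. Which tissue each sample came from is not given. The labels do not say that the samples of a group are separate mice, and the legend counts fewer mice per group than there are samples here, so p-values measure the spread between these samples, which may be partly technical.

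Mitochondrial DNA is transcribed from both strands into long precursors by POLRMT, a single-subunit RNA polymerase, with TFAM, which bends and packages the DNA, and TFB2M, which melts the promoter. The precursors are cut at the transfer RNAs that lie between the coding regions, and the freed messenger RNAs receive poly-A tails and are held by protein partners that protect them. The proteins for all of these steps are imported, so that a dividing blood cell supplies them by transcription of nuclear genes. The libraries were made with a 3′ kit that reads 1 end per transcript, so a level in CPM (reads of a gene scaled to a common, TMM-adjusted library size) can be compared between genes with little dependence on length. All levels below are on this scale, and all fold changes are log2 differences of AG636 minus Vehicle.

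The promoters of 5 of the factors are shown because these genes span the responses that follow: Tfam, Twnk, Slirp and Fastkd2 were lower in AG636, and Polrmt is the polymerase that the other initiation factors work with. Each sequence is 300 bases long, from 250 before to 50 after a RefSeq start site in GRCm38.p6, and is written 5′ to 3′ on the strand of the gene. Capitals mark the letters GCGCATGC (bound by NRF1), CCGGAAG (bound by ETS family factors such as GABPA) and AAGATGGCG (bound by YY1), searched for on both strands. The Tfam window is chr10:71237995-71238294 (minus strand), Twnk chr19:45006308-45006607 (plus, the start site that matches the count table), Slirp chr12:87443646-87443945 (plus), Fastkd2 chr1:63730375-63730674 (plus) and Polrmt chr10:79746532-79746831 (minus). The Tfam start site lies 236 bases inside the gene as counted, so most of the Tfam window lies within that gene.
Tfam: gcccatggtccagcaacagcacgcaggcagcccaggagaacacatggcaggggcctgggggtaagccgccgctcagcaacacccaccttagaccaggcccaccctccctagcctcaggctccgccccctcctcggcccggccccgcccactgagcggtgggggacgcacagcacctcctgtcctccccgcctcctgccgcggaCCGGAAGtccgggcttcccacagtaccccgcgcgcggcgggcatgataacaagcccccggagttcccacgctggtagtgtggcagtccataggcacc
Twnk: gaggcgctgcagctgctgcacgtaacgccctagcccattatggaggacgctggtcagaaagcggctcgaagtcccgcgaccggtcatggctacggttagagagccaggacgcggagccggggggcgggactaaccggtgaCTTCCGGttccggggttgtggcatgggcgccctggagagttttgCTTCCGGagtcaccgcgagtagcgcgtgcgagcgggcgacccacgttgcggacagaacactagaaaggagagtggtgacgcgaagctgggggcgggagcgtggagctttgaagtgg
Slirp: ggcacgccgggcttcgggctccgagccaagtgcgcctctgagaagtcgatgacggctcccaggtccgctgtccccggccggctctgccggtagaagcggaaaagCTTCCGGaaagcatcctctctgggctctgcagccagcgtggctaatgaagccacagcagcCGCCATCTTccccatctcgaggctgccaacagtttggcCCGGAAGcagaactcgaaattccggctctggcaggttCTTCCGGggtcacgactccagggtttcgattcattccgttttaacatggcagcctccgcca
Fastkd2: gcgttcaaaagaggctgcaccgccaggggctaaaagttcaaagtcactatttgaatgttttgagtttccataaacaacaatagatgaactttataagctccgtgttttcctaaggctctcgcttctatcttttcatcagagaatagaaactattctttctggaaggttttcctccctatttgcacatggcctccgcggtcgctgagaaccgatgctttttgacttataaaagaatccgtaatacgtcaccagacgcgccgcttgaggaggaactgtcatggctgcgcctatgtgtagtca
Polrmt: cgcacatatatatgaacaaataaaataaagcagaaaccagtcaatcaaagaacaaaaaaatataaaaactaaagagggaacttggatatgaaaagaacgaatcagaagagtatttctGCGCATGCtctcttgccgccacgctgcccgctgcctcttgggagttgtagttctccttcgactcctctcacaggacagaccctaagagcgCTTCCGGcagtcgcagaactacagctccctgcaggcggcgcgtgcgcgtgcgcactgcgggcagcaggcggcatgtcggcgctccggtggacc

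RefSeq promoters were at hand for 9 of the 10 factors, all but Mtpap. CCGGAAG was present in the windows of 5 of these 9 (Polrmt, Slirp, Tfam, Trmt10c and Twnk), against 8.86% of all 32851 promoters of the same length. Twnk held it at 2 places and Slirp at 3, whereas the Tfam and Polrmt windows held it once each. RefSeq lists a further Twnk start site 895 bases upstream, whose window (chr19:45005413-45005712, 46.7% GC) held none of the 4 motifs. GCGCATGC was found in Polrmt and Tfb2m and in 2.71% of all promoters, and AAGATGGCG in Slirp alone of the 9 and in 1.4% of all. The E-box letters CACGTG occurred in none of the 9 and in 7.15% of all, and the Fastkd2 window held none of the 4 motifs. The Fastkd2 and Tfam windows also differed in base composition, at 44.3% and 70.3% GC, with a median of 52.7% over all promoters. Of the other windows with CCGGAAG, Slirp, Trmt10c and Twnk lay at 62.0%, 63.3% and 65.0% GC and Polrmt at 52.0%. Tfb1m, Lrpprc and Tfb2m, without it, lay at 60.0%, 64.3% and 67.3%. The shares over all promoters count promoters rather than genes and were not matched for GC content or expression. The motif matches are letters in a window, and any part of them in the changes described below was not tested.

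Libraries held 6586446 to 7162036 counts in Vehicle and 6120030 to 6610360 in AG636. Of 54838 genes 10911 passed the filter on low counts, all 10 factors among them. Replicates differed by more than counting error, with a chi-square per degree of freedom of 3.904 to 4.589 among Vehicle samples 1 to 3, 9.306 to 13.2 between these and Vehicle sample 4, and 14.09 to 25.05 among AG636 samples. Of the leukaemic progenitor markers Kit lay at 153 to 252 CPM, Myb at 388 to 717 and Spi1 at 26.0 to 55.7, and all 6 summed to 605.9 to 737.4 CPM in Vehicle and 683 to 984.4 in AG636. Cd34 lay at 2.43 to 12.6 CPM in Vehicle and at 4.51, 5.11, 35.6 and 4.05 CPM in AG636, where sample 3 stood apart, whereas Mpo reached no more than 4.77 CPM and Ptprc no more than 9.25. Itgam, which encodes CD11b, lay at or below 0.615 CPM and the neutrophil gene Ly6g at or below 0.723. Markers of mature myeloid cells summed to 41.16 to 95.9 CPM in Vehicle and 16.02 to 183.6 in AG636, B cell markers to 5.379 to 13.39 and 10.69 to 22.55, T and NK cell markers to 2.738 to 9.13 and 3.671 to 19.79, and erythroid markers to 2248 to 6080 and 4715 to 6228. The erythroid genes were thus well above the other non-leukaemic lineages in both groups, with the lowest sum in Vehicle sample 4. Single markers were higher in AG636 without overlap at an adjusted p under 0.05, namely the globin gene Hbb-bt, at 17.8 to 37.4 CPM in Vehicle and 40.1 to 60.2 in AG636 (0.90, SE 0.223, adjusted p = 0.0238), and the B cell gene Cd79a, at 0.291 to 1.06 and 1.6 to 3.18 CPM (1.83, SE 0.467, adjusted p = 0.0266). The erythroid gene Slc4a1 had 9.38 to 16.4 CPM in Vehicle and 39.5, 54.0, 13.6 and 59.0 CPM in AG636 (1.58, SE 0.478, adjusted p = 0.0501). The part of these cells in the results below was not tested.

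In Vehicle cells the 10 factors fell into 3 bands of abundance. Lrpprc (142.2 ± 29.04 CPM), Slirp (124.3 ± 10.12) and Tfam (119.9 ± 4.196; SD, n = 4 each) were the most abundant and overlapped each other from sample to sample, at the 84.4th to 87.4th percentile of all genes tested. Trmt10c, Fastkd2, Mtpap and Polrmt lay between 25.06 and 38.2 CPM on average, of which the first 3 overlapped and Polrmt lay below every Mtpap and Fastkd2 value in Vehicle. Twnk (19.91 ± 1.116 CPM), Tfb1m (18.03 ± 2.615) and Tfb2m (15.37 ± 1.164) formed the lowest band, in which Tfb1m overlapped both of the others and Tfb2m and Twnk did not overlap. The transcript of Tfam was thus several times as abundant as that of Polrmt, with a log2 ratio of Polrmt to Tfam of −2.245 ± 0.0684 in Vehicle.

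To determine whether DHODH inhibition altered these transcripts, the groups were tested with limma-voom over all 10911 genes. Tfam, Twnk, Slirp and Fastkd2 were lower in AG636 at an adjusted p-value under 0.05, and none of the 10 was higher by limma-voom, edgeR or DESeq2 (0 higher and 6 lower at an unadjusted p under 0.05 by limma-voom). These 4 of 10 stand beside a background of 8.49% of all tested genes called lower and 5.47% called higher. Because the factors were chosen with earlier results known, the shares in this paragraph are descriptions and not tests. All 10 fold changes were negative, with a median of −0.452, though Polrmt turned to 0.0095 with library size alone and to 0.0034 without AG636 sample 1, and Tfb1m turned without AG636 sample 3. Of all genes, 50.6% of those tested had a negative value and the median was −0.00562. The 4 and 4 samples did not overlap in 5 of the 10 factors (the 4 called and Tfb2m), each lower in AG636, against 12.9% of tested genes whose groups did not overlap in that direction. In bulk RNA fewer cells of a type and less RNA per cell cannot be told apart. The split of all calls depended on scaling, since 926 genes were lower and 597 higher with TMM factors, but 571 were lower and 918 higher with library size alone. Under that scaling Tfam, Twnk and Fastkd2 were still called lower and Slirp was not.

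**Figure D1:**
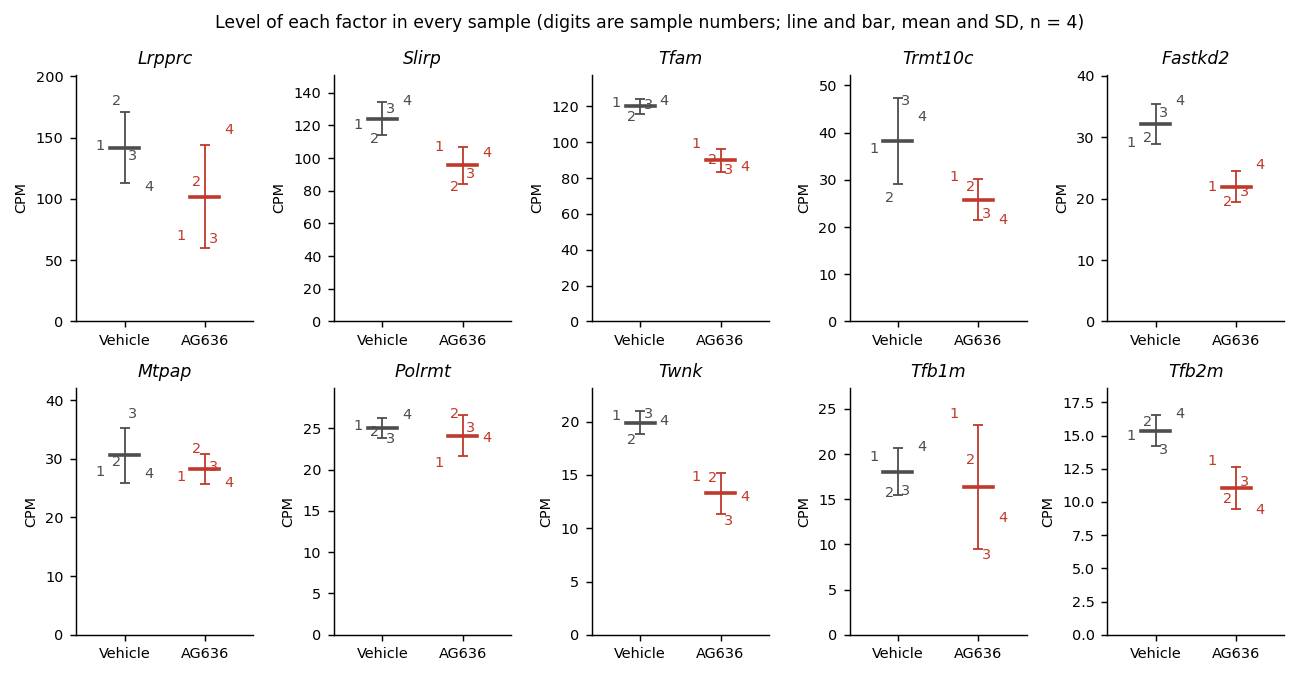
Level of each factor in CPM (vertical axes, from 0) in the 4 Vehicle (grey) and 4 AG636 (red) samples, where digits are sample numbers, the thick line is the mean and the bar the SD. The groups are separated for Slirp, Tfam, Fastkd2, Twnk and Tfb2m, and overlap for Lrpprc, Trmt10c, Mtpap, Polrmt and Tfb1m.

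Of the initiation factors Tfam was lower in AG636, and Polrmt and Tfb2m did not pass the test. Polrmt (ENSMUSG00000020329, chr10:79736123-79746581, minus strand) was measured at 25.3, 24.6, 23.7 and 26.6 CPM in Vehicle samples 1 to 4 and at 20.8, 26.7, 25.1 and 23.8 CPM in AG636 samples 1 to 4. The groups overlapped, and AG636 held both the lowest and the highest value. The fold change of Polrmt was −0.06 (SE 0.114, adjusted p = 0.754), with a 95% interval from −0.31 to 0.19. Tfam (ENSMUSG00000003923, chr10:71225464-71238280, minus strand), which coats mitochondrial DNA as well as starting its transcription, was measured at 122, 114, 121 and 123 CPM in Vehicle and at 98.8, 90.2, 84.3 and 86.4 CPM in AG636. Every AG636 value lay below every Vehicle value. The mean of Tfam fell by 25%, from 119.9 ± 4.196 to 89.91 ± 6.385 CPM, a fold change of −0.42 (SE 0.081, adjusted p = 0.00898). With 528 to 835 counts per sample Tfam had the smallest SE of the 10, and it was called lower in all 18 alternative fits, with adjusted p from 0.000369 to 0.0366.

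Tfb2m and Tfb1m descend from the same family of ribosomal RNA methyltransferases, but TFB2M serves as the initiation factor and TFB1M methylates the small ribosomal RNA of mitochondria. Tfb2m (ENSMUSG00000026492, chr1:179528055-179546267, minus strand) was measured at 15, 16, 13.9 and 16.6 CPM in Vehicle and 13.1, 10.2, 11.5 and 9.4 CPM in AG636. The groups did not overlap, with the closest values in AG636 sample 1 and Vehicle sample 3. The fold change was −0.49 (SE 0.15, adjusted p = 0.0535), which did not pass the threshold; without AG636 sample 1 the adjusted p was 0.0498. Tfb1m (ENSMUSG00000036983, chr17:3519256-3557781, minus strand) was measured at 19.7, 15.7, 15.9 and 20.8 CPM in Vehicle and 24.4, 19.3, 8.78 and 12.9 CPM in AG636. AG636 sample 1 was the highest of all 8 samples and AG636 sample 3 the lowest. The coefficient of variation of Tfb1m in AG636 was 42.3%, where counting error alone amounts to 9.74%. Its fold change of −0.24 (SE 0.268, adjusted p = 0.592) turned to 0.01 without AG636 sample 3.

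Twnk (ENSMUSG00000025209, chr19:45006558-45012762, plus strand) encodes Twinkle, the helicase that unwinds mitochondrial DNA for replication. It was measured at 20.5, 18.3, 20.7 and 20.1 CPM in Vehicle and 14.8, 14.7, 10.7 and 12.9 CPM in AG636. The Vehicle samples lay close together and all above the AG636 samples, of which sample 3 was the lowest. Twnk had the most negative fold change of the 10, −0.59 (SE 0.14, adjusted p = 0.019), from a mean of 19.91 ± 1.116 to 13.25 ± 1.921 CPM. It rested on 67 to 141 counts per sample, and the adjusted p rose to at most 0.0627 without Vehicle sample 1 or Vehicle sample 3.

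**Figure D2:**
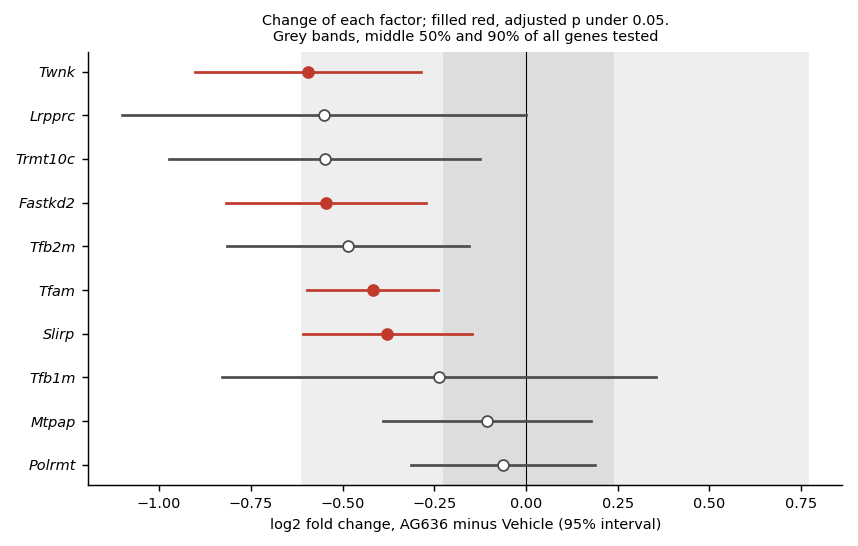
Log2 fold change of each factor (horizontal axis, AG636 minus Vehicle) with its 95% interval, filled red where the adjusted p was under 0.05, over grey bands for the middle 50% and 90% of all genes tested. The 8 most negative factors lie to the left of the inner band, which spans −0.225 to 0.237, and Polrmt and Mtpap lie inside it.

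The factors that cut and tail new transcripts gave unequal values. Trmt10c (ENSMUSG00000044763, chr16:56032609-56037819, minus strand) encodes a methyltransferase subunit of mitochondrial RNase P, which frees the leading end of each transfer RNA from the precursor. It was measured at 36.6, 26.1, 46.7 and 43.4 CPM in Vehicle and 30.6, 28.4, 22.7 and 21.5 CPM in AG636. The groups overlapped through Vehicle sample 2 alone, which lay below AG636 samples 1 and 2. The fold change of Trmt10c was −0.55 (SE 0.193, adjusted p = 0.0816), and without Vehicle sample 2 it was −0.72 (adjusted p = 0.0258). DESeq2 also called it lower. Mtpap (ENSMUSG00000024234, chr18:4375592-4397330, plus strand), the polymerase that adds poly-A tails to mitochondrial transcripts, was measured at 27.8, 29.5, 37.6 and 27.4 CPM in Vehicle and 26.9, 31.6, 28.6 and 25.9 CPM in AG636. The groups overlapped over most of their range, and the fold change of −0.11 (SE 0.129, adjusted p = 0.617) had a 95% interval from −0.39 to 0.18.

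LRPPRC and SLIRP form a complex that binds mitochondrial messenger RNAs, protects them and promotes their polyadenylation. Lrpprc (ENSMUSG00000024120, chr17:84705247-84790789, minus strand) was measured at 143, 180, 135 and 110 CPM in Vehicle and 69.7, 114, 67.2 and 156 CPM in AG636. AG636 samples 1 and 3 lay below all Vehicle samples, whereas samples 2 and 4 lay within the Vehicle range. The spread of Lrpprc in AG636 had a coefficient of variation of 41.3%, against a counting error of 3.88%. Its fold change was −0.55 (SE 0.25, adjusted p = 0.163), and without AG636 sample 4 it was −0.77 (adjusted p = 0.0361). The 8 mature myeloid markers summed to 16.02, 149.2, 20.27 and 183.6 CPM in the same AG636 samples, a sum likewise low in samples 1 and 3. S100a8, S100a9, Ltf and Camp were lower in these 2 samples than in samples 2 and 4. Csf1r (2.18, 1.92, 1.76 and 4.63 CPM) and Cxcr2 (0.933, 1.44, 1.91 and 2.46 CPM) did not share this pattern, and Itgam and Ly6g lay at or near 0 throughout. In Vehicle the sum was lowest in sample 3 (41.16 CPM) and Lrpprc in sample 4. The part of these markers in the result was not tested.

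Slirp (ENSMUSG00000021040, chr12:87443896-87452206, plus strand) was measured at 120, 112, 130 and 135 CPM in Vehicle and 107, 82.2, 90.6 and 103 CPM in AG636. The groups did not overlap, though AG636 sample 1 and Vehicle sample 2 lay close together. The mean of Slirp fell by 22.9%, a fold change of −0.38 (SE 0.104, adjusted p = 0.0366). The exons of Slirp span 3104 bases, of which 2914 overlap those of Snw1 and 122 those of Alkbh1, both on the other strand. Use of strand in counting is not given in the sources used here, so the level of Slirp is uncertain. Snw1 had a fold change of 0.09 (SE 0.0801, adjusted p = 0.507) and Alkbh1 one of −0.36 (SE 0.109, adjusted p = 0.0493), and the part of shared reads was not tested. Slirp was called in 10 of the 18 alternative fits, and its adjusted p passed 0.05 on leaving out any of Vehicle samples 1, 3 and 4 or AG636 samples 2 and 3, up to 0.105.

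Fastkd2 (ENSMUSG00000025962, chr1:63730614-63754655, plus strand) encodes a protein of the mitochondrial RNA granule that binds the large ribosomal RNA and serves ribosome assembly. It was measured at 29.1, 29.8, 33.9 and 35.9 CPM in Vehicle and 21.9, 19.5, 21.1 and 25.4 CPM in AG636. All AG636 values lay below all Vehicle values. The mean of Fastkd2 fell by 31.7%, from 32.19 ± 3.248 to 21.98 ± 2.523 CPM, a fold change of −0.55 (SE 0.124, adjusted p = 0.0172). The call was lost without Vehicle sample 3 or Vehicle sample 4, with an adjusted p of at most 0.0582.

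With both Vehicle sample 4 and AG636 sample 3 left out together, Tfam alone of the 10 was called, and the median fold change of the 10 was −0.377. Across the AG636 samples, sample 1 held the highest value of 6 factors and sample 3 the lowest value of 4, and in Vehicle sample 4 held the highest value of 6. Within AG636, Lrpprc and Fastkd2 were highest in sample 4 and Polrmt and Mtpap in sample 2. Counting error in AG636 was 8.01% for Polrmt, 7.41% for Mtpap and 8.37% for Fastkd2, and common movement of the factors was not tested.

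**Figure D3:**
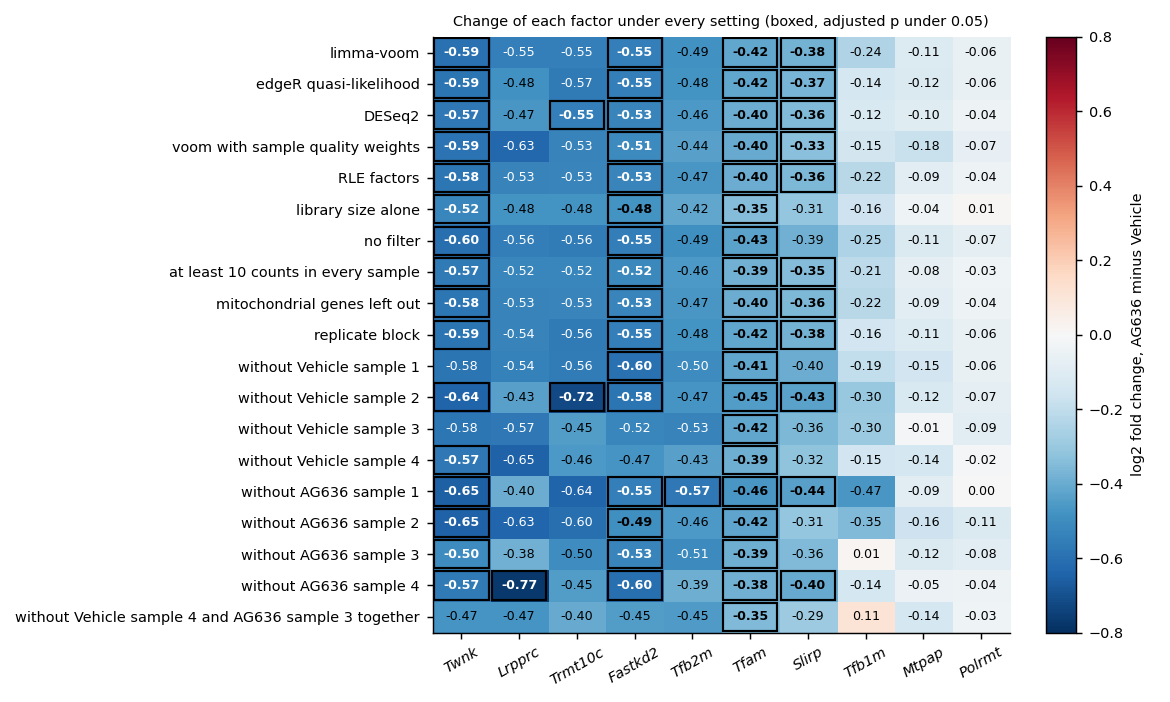
Log2 fold change (colour and printed value) of each factor in the main fit by limma-voom and in 18 alternative fits, with a box where the adjusted p was under 0.05. Tfam is boxed in every fit, Twnk and Fastkd2 are boxed in all but 3 of the alternatives, and Polrmt, Mtpap and Tfb1m are boxed in none.

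To compare partner factors directly, 4 ratios were taken within each sample and their group means compared by exact permutation (two-sided, all 70 relabellings, smallest possible p 0.0286). The log2 ratio of Polrmt to Twnk was 0.30, 0.42, 0.19 and 0.40 in Vehicle and 0.49, 0.85, 1.21 and 0.88 in AG636. It was higher in every AG636 sample than in every Vehicle sample. The difference of 0.526 gave the smallest possible exact p = 0.0286, which did not pass after adjustment over the 4 ratios (adjusted p = 0.114). When 1 ratio alone of the 4 reaches that smallest p, its adjusted p cannot fall under 0.05. The adjusted value therefore cannot decide whether the Polrmt to Twnk ratio changed. The log2 ratio of Polrmt to Tfam was −2.25, −2.20, −2.34 and −2.20 in Vehicle and −2.23, −1.75, −1.74 and −1.84 in AG636, a difference of 0.356 (exact permutation p = 0.0857, adjusted p = 0.171). AG636 sample 1 lay within the Vehicle range of that ratio and the other 3 lay above it. Tfb2m to Tfb1m differed by −0.245 (exact permutation p = 0.457, adjusted p = 0.61), from −0.52 without AG636 sample 3 to −0.099 without AG636 sample 2, and Lrpprc to Slirp by −0.173 (exact permutation p = 0.657, adjusted p = 0.657), both with overlapping groups. For Lrpprc to Slirp the AG636 samples lay far apart, at −0.62, 0.47, −0.43 and 0.59.

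**Figure D4:**
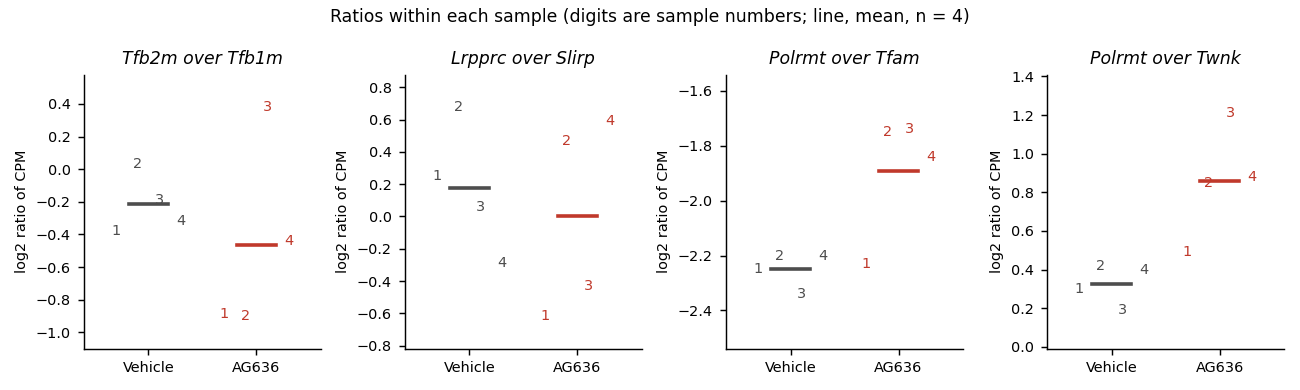
Log2 ratio of CPM values of 4 pairs of factors within each sample (digits are sample numbers, lines are means of 4 samples). The Polrmt to Twnk ratio lies between 0.19 and 0.42 in Vehicle and between 0.49 and 1.21 in AG636, and the groups overlap for the other 3 pairs.

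The other genes of mitochondrial DNA and RNA metabolism were taken from a list of 54 factors, of which 52 passed the filter. Of these 7 were lower and 3 higher in AG636, 40 had a negative fold change, and the median was −0.202. The 7 of 52 are 13.5%, beside the background of 8.49%, and the 3 of 52 are 5.77%, beside 5.47%. This list too was chosen with earlier results of these data known. The genes not tested were Mterf1b and Slc25a33, with at most 8 and 1 counts in a sample.

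Of 6 genes for cutting transcripts and trimming transfer RNA ends, 2 were lower. Elac2, the nuclease that cuts the trailing end of transfer RNAs, was measured at 25.5 to 31.3 CPM in Vehicle and 15.3 to 22.1 in AG636, a fold change of −0.53 (SE 0.135, adjusted p = 0.0275). Pde12, which shortens poly-A tails in mitochondria, went from 36.2 to 43.4 CPM in Vehicle down to 27.6 to 31.7 in AG636, a fold change of −0.40 (SE 0.102, adjusted p = 0.028). Elac2 was called in 10 of the 18 alternative fits and in 3 of the 8 that left out 1 sample, and Pde12 in 8 and in 1, with adjusted p of up to 0.077 and 0.117. Hsd17b10, a partner of Trmt10c in RNase P, gave −0.31 (adjusted p = 0.0845), with no overlap between groups. None of the 4 RNA turnover genes passed by limma-voom, edgeR or DESeq2, and 1 had an unadjusted p under 0.05 by limma-voom. Of these the smallest p-values were those of Pnpt1, an exoribonuclease (−0.51, adjusted p = 0.0994), Rexo2, which clears short fragments (−0.27, adjusted p = 0.175), and the helicase gene Supv3l1 (−0.19, adjusted p = 0.278).

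Fastkd2 belongs to the FASTK family, and its 5 other members tested all had negative fold changes, from −0.488 to −0.158. One of them passed, Fastkd3, with 23.2 to 29.4 CPM in Vehicle and 16.5 to 20.7 in AG636 (−0.49, SE 0.131, adjusted p = 0.0328). Fastkd3 was called in 7 of the 18 alternative fits, and its adjusted p reached 0.0921 among them. Tbrg4, also known as FASTKD4, gave −0.39 (adjusted p = 0.0525) without overlap and passed in 3 alternatives, and Fastkd1 gave −0.35 (adjusted p = 0.159). Of 20 genes for the RNA granule and ribosomal RNA modification 3 were lower. Ptcd3, a pentatricopeptide protein of the small mitochondrial ribosomal subunit, was measured at 77.5, 79.5, 80.8 and 90.8 CPM in Vehicle and 54.9, 48.2, 49.1 and 62.2 CPM in AG636 (−0.62, SE 0.104, adjusted p = 0.00502). Mrm3, a methyltransferase of the large ribosomal RNA, lay at 14.4 to 18.6 CPM in Vehicle and 8.40 to 11.9 in AG636 (−0.76, SE 0.16, adjusted p = 0.0121). Rcc1l, a granule protein linked to ribosomal RNA and its assembly, gave −0.54 (SE 0.133, adjusted p = 0.0238). Ptcd3 and Mrm3 were called in all 18 alternative fits and Rcc1l in 10.

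Of 11 genes for replication and maintenance of mitochondrial DNA, 1 was lower and 1 higher. Atad3a, an inner membrane ATPase linked to the organisation of mitochondrial DNA, was measured at 50.1, 46.7, 51.7 and 54.2 CPM in Vehicle and 26.0, 29.7, 34.9 and 37.7 CPM in AG636 (−0.67, SE 0.124, adjusted p = 0.00734). Primpol, a primase and polymerase that restarts stalled forks in nucleus and mitochondria, was measured at 16, 16.4, 13.2 and 13.7 CPM in Vehicle and 45.6, 47.9, 27.3 and 26.5 CPM in AG636 (1.25, SE 0.234, adjusted p = 0.00755). It was the largest rise in the list, and both genes were called in all 18 alternative fits. Ssbp1, the single-stranded DNA binding protein of mitochondria, gave −0.41 (adjusted p = 0.0554) with no overlap. The other genes that rose were Mterf1a, a transcription termination factor (0.88, SE 0.229, adjusted p = 0.0291), which has the near-identical copy Mterf1b and is therefore uncertain and was called in 13 of the 18 fits, and Slc25a36, a carrier of pyrimidine nucleotides into mitochondria (0.73, SE 0.104, adjusted p = 0.00263). Slc25a36 went from 67.2 to 70.9 CPM in Vehicle up to 96.4 to 132 in AG636. Of the other termination and elongation genes, Tefm (−0.36, adjusted p = 0.213) and Mterf3 (−0.24, adjusted p = 0.54) had the smallest p-values.

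Of 8 regulators that act on nuclear genes for mitochondria 7 were tested, and none passed by limma-voom or edgeR, with a median of −0.246; 1, Ppargc1b, had an unadjusted p under 0.05 and passed by DESeq2. Ppargc1b, a coactivator of respiratory genes, had 20.7 to 26.0 CPM in Vehicle and 13.5 to 19.8 in AG636, with no overlap (−0.49, SE 0.149, adjusted p = 0.0518). The nuclear receptor gene Esrra gave −0.30 (adjusted p = 0.172) and Gabpa, which encodes a protein that binds the CCGGAAG letters, −0.28 (adjusted p = 0.203). Ppargc1a had at most 2 counts in a sample and was not tested.

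**Figure D5:**
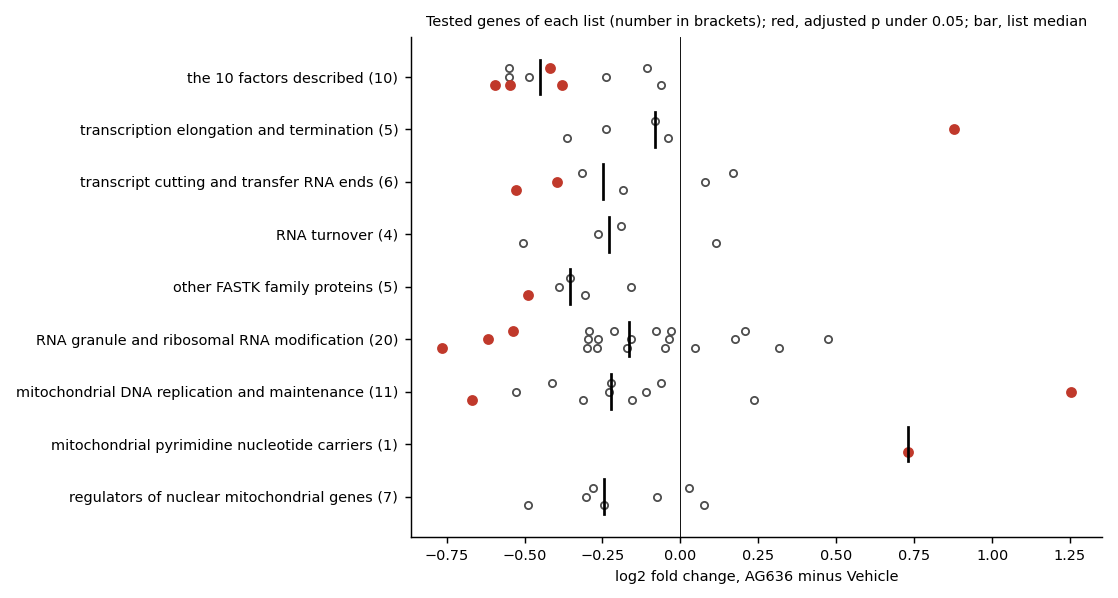
Log2 fold change (horizontal axis, AG636 minus Vehicle) of every tested gene of each list, with the number tested in brackets, red where the adjusted p was under 0.05 and a black bar at the median of the list. The 10 factors lie between −0.595 and −0.0621, and the other lists hold values on both sides of 0 except the other FASTK family and the single carrier.

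The RNAs on which these factors act are shown for scale. The mitochondrially encoded messenger RNAs summed to 36750 to 40770 CPM in Vehicle and to 23780, 18230, 9363 and 14660 CPM in AG636 samples 1 to 4, without overlap. Of the 13 messengers 11 were tested, and 9 of these (81.8%) were called lower, beside 8.49% of all genes tested. Their median fold change was −1.27, and the highest was 0.936. The messenger with the smallest p-value, mt-Cytb, also had the most negative fold change. It went from 8977 ± 240.1 to 1866 ± 1013 CPM (−2.41, SE 0.295, adjusted p = 0.00178). The ribosomal RNAs had higher sums in AG636, with 38990 to 42920 CPM in Vehicle and 46530 to 56490 in AG636, and mt-Rnr1 rose by 0.50 (SE 0.0913, adjusted p = 0.00705). The other of the 2 ribosomal RNAs had a fold change of 0.228 and did not pass the threshold. AG636 sample 3 held the lowest value of 4 of the factors and had the lowest sum of messenger RNAs. Sample 1 held the highest value of 6 factors and had the highest sum, but also held the lowest Polrmt value (20.8 CPM). Lrpprc lay at 69.7 CPM in sample 1 and 156 CPM in sample 4, and sample 4 held the lowest value of 3 factors. A link between the factors and these sums was not tested. The kit primes on poly-A, so for mitochondrially encoded RNAs a change in amount and a change in tail cannot be told apart.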

How the data were processed

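RNA was measured in 4 Vehicle and 4 AG636 samples of sorted RUNX1-RUNX1T1 AML cells. Gene-level read counts, not normalised, were deposited, and the authors made them with cutadapt, HISAT2 and the subread package on mm10; the labels and the methods name different versions, and use of strand is not given in the sources used here. Genes were kept by filterByExpr (minimum count 10), scaled by TMM factors and fitted with voom and limma 3.58.1 (with edgeR 4.0.16 under R 4.3.3) on the 8 samples together, group being the single factor, since the study names limma. Tests were two-sided, with Benjamini-Hochberg adjustment over all 10911 genes and a threshold of 0.05. Log2 ratios used a prior count of 2. Promoters came from RefSeq (GRCm38.p6). Symbols were matched for 54723 genes.

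The factors, lists, ratios and motifs were chosen with earlier results of these data known. The text names all 10 factors and, of the other lists, every gene past the threshold and at least the 3 with the smallest p-values per group, and the mitochondrial messenger and ribosomal RNA with the smallest p-value. Alternatives were edgeR's quasi-likelihood test, DESeq2 (1.42.0), sample quality weights, RLE factors, library size alone, no filter, a stricter filter of 10 counts per sample, removal of mitochondrial genes, a replicate block, omission of each sample, an adjusted p under 0.01, a prior count of 0.5 for the ratios, and, added after seeing the data, 2 samples left out together. The procedure was tested on simulated data, with a limit on false calls set for limma-voom and edgeR but not for DESeq2.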

Additional observations from a re-analysis of the deposited data

Results flagged for a closer look

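Rexo2, which encodes a mitochondrial oligoribonuclease, was set apart by 1 sample: its log2 CPM in AG636 sample 4 was 7.85, while the other AG636 samples lay closely together, at 151 to 159 CPM against 230 CPM in sample 4. The gap to the nearest sample, divided by the range of the group, exceeded the critical value of Dixon's test for 4 samples. This was 1 of 72 combinations of measure and group tested, of which chance alone would set apart about 3.6. Without AG636 sample 4 the adjusted p of Rexo2 was 0.00965, the lowest of its alternatives, and it was 0.175 with all samples.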

How the results depend on the processing

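Tfam was called lower in all 18 alternative fits, Twnk and Fastkd2 in 15 and Slirp in 10. Leaving out each sample in turn gave 688 to 1706 genes called in all, 1 (without Vehicle sample 3) to 5 of the 10 factors, 5 to 11 of the other factors and 0 to 1 regulators. Without Vehicle sample 1 or Vehicle sample 4, 2 of the 10 factors were called. An adjusted p under 0.01 left 435 genes, 1 of the 10 factors and 4 other factors. Library size alone and no filter each left 6 other factors, and without Vehicle sample 4 and AG636 sample 3 there were 1 factor and 5 others. Of the regulators 1, Ppargc1b, was called by DESeq2, with quality weights, without AG636 sample 3 and without those 2 samples. The direction of Polrmt turned with library size alone (0.0095) and ranged from −0.11 to 0.0034 over left-out samples; that of Tfb1m ranged from −0.47 to 0.013 and was 0.11 without both samples; the causes were not tested. Over left-out samples the Lrpprc to Slirp difference ranged from −0.37 to 0.034 and that of Tfb2m to Tfb1m from −0.52 to −0.099. With the replicate number as a block, 1446 genes, 4 of the 10 factors, 10 other factors (Tbrg4 gained, Fastkd3 lost) and 1 regulator (Ppargc1b gained) were called. Deviations from the group means correlated at −0.144 to 0.245 between same-numbered samples and at −0.33 to 0.275 between the others. These values do not settle whether the numbers pair the samples. Counting error in AG636 was 10.8% of the mean for Twnk, 11.8% for Tfb2m and 12.4% for Mterf1a.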
